A study of Mus musculus with 20 samples.

Results

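The insulin-like growth factor axis was represented by 10 genes chosen by name among the 45802 genes of an expression table: the ligand gene Igf1, the binding protein genes Igfbp1, Igfbp2, Igfbp3 and Igfbp4, the receptor genes Igf1r, Igf2r, Insr and Ghr, and the adaptor gene Irs2. All 10 had a value in every library, and all 10 were among the 11807 genes that passed the filter on low values (a linear value of at least 1 in at least 4 libraries). They were measured by bulk RNA sequencing in the livers of 20 C57BL/6 mouse fetuses at E17.5, all from dams fasted for 24 h, in 5 groups of 4 with both sexes in each. In the Ppara arm, Ppara heterozygous fetuses of heterozygous dams (HetDam_HetFetus) were the controls for heterozygous fetuses of Ppara knockout dams (KODam_HetFetus) and for knockout fetuses of knockout dams (KODam_KOFetus). Every group of this arm therefore carried at least 1 inactivated Ppara allele in dam and fetus. In the Cpt2 arm, fetuses labelled Cpt2f/f came from Cpt2f/f dams (FloxDam_FloxFetus, the controls) or from Cpt2f/f dams carrying Albumin-Cre (Cpt2LKODam_FloxFetus), a transgene active in hepatocytes that confines the loss of Cpt2 to the liver of the dam. The titles and design text call the Cpt2f/f fetuses and control dams wild type, and the genotype labels were followed here. Some fetuses carry the same number in their sample descriptions and were taken as presumed littermates, so the p-values treat as independent some fetuses that may share a dam.

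PPARA is a fatty acid sensing nuclear receptor of the liver that turns on genes of fat burning and ketogenesis during fasting, and CPT2 is a mitochondrial enzyme needed to oxidise long-chain fatty acids. Growth hormone acts through its receptor GHR and the kinase JAK2, which activates the STAT5 transcription factors. In the liver after birth this pathway drives Igf1 and Igfals, while before birth growth depends mainly on IGF2 and little on growth hormone. Binding proteins hold the factors in the blood and limit their access to the receptors: IGFBP1 is made by hepatocytes, is repressed by insulin and rises in fasting. IGF1R and INSR are related tyrosine kinase receptors that signal through IRS adaptors to phosphatidylinositol 3-kinase and AKT, and AKT keeps the FOXO transcription factors out of the nucleus. FOXO factors are known to act on both Igfbp1 and Irs2.

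The upstream sequence of these FOXO-regulated members is shown because forkhead factors read an element there, together with that of Igfals, a gene that depends on STAT5 after birth. The windows are the 250 bases before a RefSeq start in GRCm38.p6, with motif matches in capitals, for Igfbp1 (chr11:7197537-7197786, plus strand), Irs2 (chr8:11008930-11009179, minus strand) and Igfals (chr17:24877981-24878230, plus strand, 1 of 3 annotated starts).
Igfbp1: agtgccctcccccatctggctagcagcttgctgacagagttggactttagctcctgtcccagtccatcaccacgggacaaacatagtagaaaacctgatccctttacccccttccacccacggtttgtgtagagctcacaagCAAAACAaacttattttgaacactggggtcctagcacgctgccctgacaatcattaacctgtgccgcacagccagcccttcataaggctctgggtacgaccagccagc
Irs2: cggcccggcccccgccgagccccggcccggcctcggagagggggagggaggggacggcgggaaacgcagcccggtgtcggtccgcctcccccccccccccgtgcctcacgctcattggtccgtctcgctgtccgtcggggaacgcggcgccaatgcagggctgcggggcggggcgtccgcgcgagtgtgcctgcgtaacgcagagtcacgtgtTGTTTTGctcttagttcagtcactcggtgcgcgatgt
Igfals: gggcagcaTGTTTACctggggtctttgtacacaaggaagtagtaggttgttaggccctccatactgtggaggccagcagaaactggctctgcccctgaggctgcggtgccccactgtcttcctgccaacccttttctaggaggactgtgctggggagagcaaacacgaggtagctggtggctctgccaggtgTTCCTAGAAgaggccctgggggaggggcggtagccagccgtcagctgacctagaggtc
The Igfbp1 window held the forkhead motif CAAAACA, beginning 108 bases before the start. The Irs2 window held the same motif on the opposite strand, which reads TGTTTTG, at 37 bases. The Igfals window held the forkhead motif GTAAACA on the opposite strand and the STAT5 motif TTCNNNGAA. It was shown as the one with the most matches: of the other Igfals windows 1 held TTCNNNGAA alone and 1 held no match, and the window of Cish, another STAT5-dependent gene, held none. Searched on both strands, CAAAACA was found in 5.56% of 32851 RefSeq windows of this length, GTAAACA in 3.17%, and TTCNNNGAA in 7.02%, and the motifs searched do not contain one another. Of the 10 members, 9 had a window, and those of the other 7 (Igf1, Igfbp2, Igfbp3, Igfbp4, Igf1r, Igf2r and Ghr) held none of these letters. A match is a description of these windows only.

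The genes lie apart in the genome except for one pair. Igfbp1 (chromosome 11, 7197787 to 7202546, plus strand) and Igfbp3 (chromosome 11, 7206086 to 7215498, minus strand) are neighbours, with 3539 bases between their ends. Igfbp4 lies elsewhere on the same chromosome (99040005 to 99052655). Insr (3150922 to 3279649) and Irs2 (10984681 to 11008929) are both on chromosome 8. Ghr is on chromosome 15 (3317755 to 3583352), Igf1 on chromosome 10 (87858265 to 87937047), Igfbp2 on chromosome 1 (72824480 to 72852474), Igf1r on chromosome 7 (67952257 to 68233668) and Igf2r on chromosome 17 (12682406 to 12769706), all as annotated in GRCm38.p6. Irs2 shares 162 exonic bases with the gene 9530052E02Rik on the other strand, which reached a log2 value of at most -3.18. The antisense genes Igf1os and Airn overlap Igf1 and Igf2r without sharing exon bases and stayed at or below -5.18 and -2.37. Whether reads were counted by strand is not given in the sources used here.

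Values are the deposited log2 values, quantile normalized by the authors, and read depth is unknown. They are not scaled for gene length as far as is stated, so levels are compared between groups and not between genes. Errors of group means are SD and errors of log2 fold changes are standard errors, with n = 4 libraries a group. The hepatocyte marker Alb stood between 14.52 and 16.15 in every library. In 4 libraries, summed markers of another tissue stood apart: skeletal muscle in HetDam_HetFetus replicate 4 (7.12) and KODam_KOFetus replicate 2 (7.55) against 3.08 to 4.30 elsewhere, exocrine pancreas in Cpt2LKODam_FloxFetus replicate 2 (8.47, against 3.32 to 5.09) and intestine and stomach in HetDam_HetFetus replicate 1 (6.81, against 2.21 to 4.88). The targeted gene Ppara stood at 3.13 ± 0.281 in HetDam_HetFetus, 2.56 ± 0.679 in KODam_HetFetus and 2.26 ± 0.27 in KODam_KOFetus. Transcript was still counted in the knockout fetuses, and since the sources used here do not say which exons were removed, the genotype labels remain unchecked. Fetal Cpt2, which was not deleted in the fetus, stood at 4.00 ± 0.309 in FloxDam_FloxFetus and 3.90 ± 0.0534 in Cpt2LKODam_FloxFetus.

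Across the 5 groups, the neighbouring groups in the order of means overlapped in their single libraries for every member. Ghr had group means from 2.24 to 3.28 against an average SD within groups of 0.259. Igfbp1 spanned 1.83 on the log2 scale between its lowest and highest group mean, against an SD of 0.393 within groups. For Igf1 and Igfbp3 the means spanned 0.45 each, against 0.316 and 0.431 within groups. The plot of values by group shows how far the libraries of each group lie from one another.

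**Figure D1:**
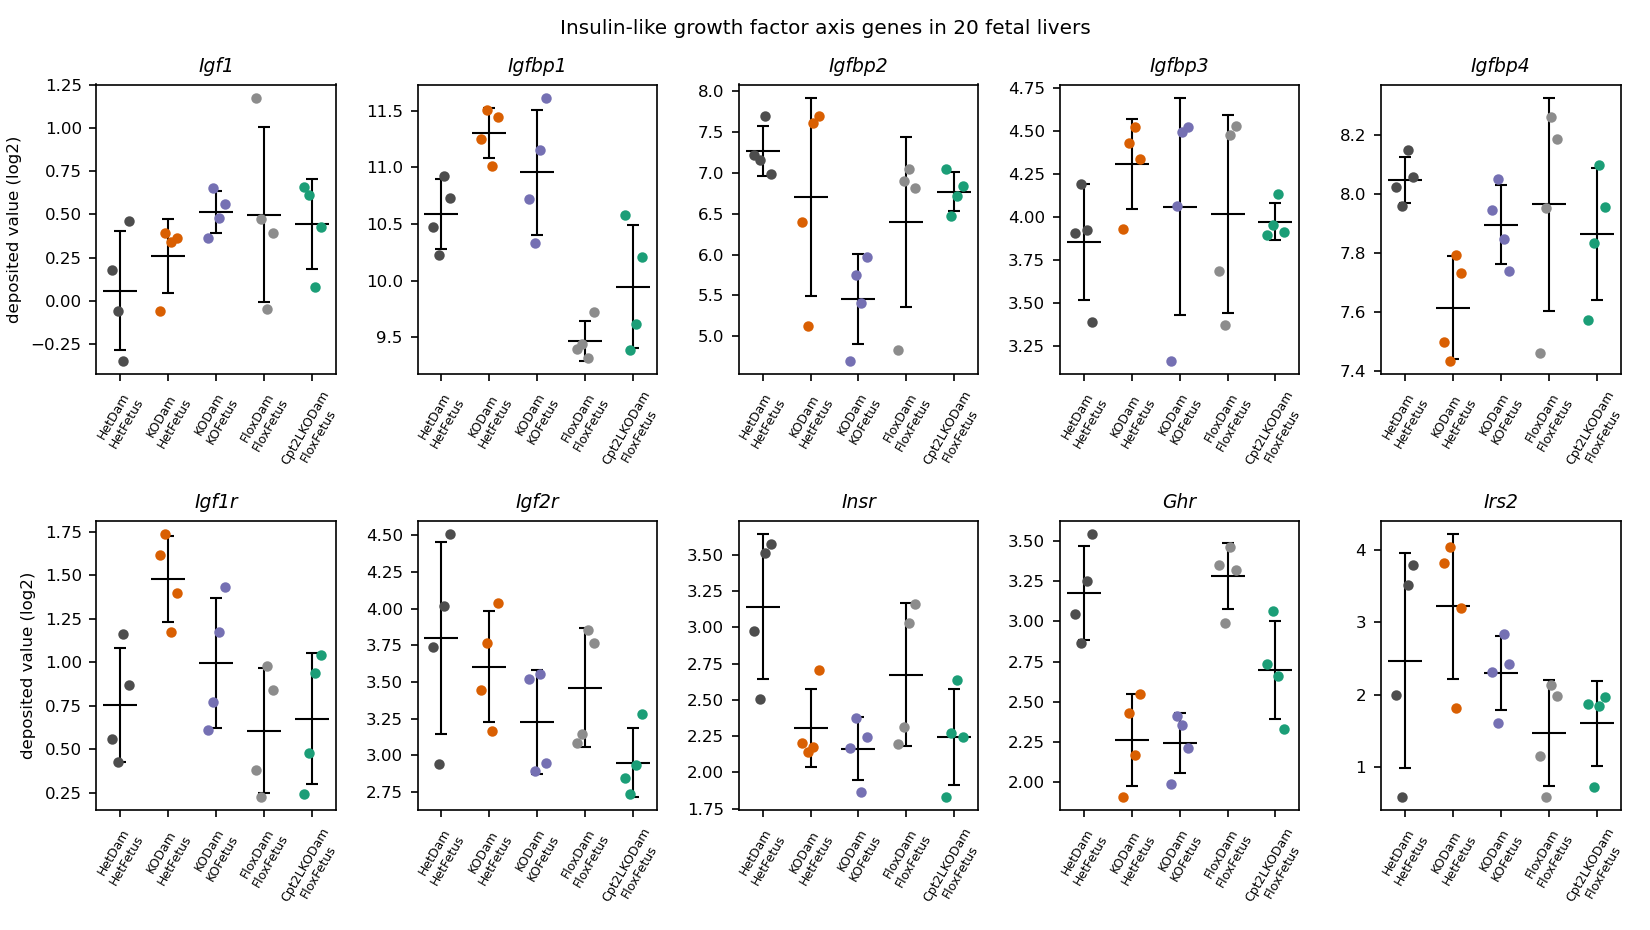
Deposited log2 value of each of the 10 genes (vertical axes, one scale per gene, not starting at 0) in the 4 libraries of each group; points are libraries in replicate order, the bar is the mean and the whiskers are 1 SD. Ghr lies between 1.91 and 2.55 in the 8 fetuses of Ppara knockout dams and between 2.33 and 3.54 in the other 12.

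The comparison of KODam_HetFetus with HetDam_HetFetus asks what loss of Ppara in the dam does to fetuses that keep a Ppara allele. Ghr, the growth hormone receptor gene, was 1.88-fold lower in the fetuses of knockout dams, and Insr, the insulin receptor gene, 1.78-fold lower. Igfbp4, whose product binds both IGFs, was 1.35-fold lower. Igfbp1 was 1.64-fold higher and Igf1r, the type 1 IGF receptor gene, 1.66-fold higher. Thus 2 of the 10 genes rose and 3 fell by limma at an adjusted p under 0.05, where 26.4% of the 11800 genes tested rose and 12.6% fell. With so many genes called, a count of 5 of 10 does not set the axis apart, and the median log2 fold change was 0.0025 for the members and 0.14 for all genes. With trimmed-mean scaling the median of all genes was 0.02 and the genes that rose made up 49.9% of all calls rather than 67.8%; the 5 called members kept their directions, but Igfbp1 lost its call (0.59, limma adjusted p = 0.0945).

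Ghr stood at 3.04, 2.86, 3.25 and 3.54 in the 4 HetDam_HetFetus livers and at 1.91, 2.43, 2.17 and 2.55 in the 4 KODam_HetFetus livers. The groups did not overlap. The log2 fold change was -0.91 ± 0.178 (limma adjusted p = 9.71e-04). It ranged from -1.01 to -0.79 when single libraries were left out, and Ghr passed the test in every alternative tried.

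Insr stood at 2.98, 2.51, 3.51 and 3.57 in HetDam_HetFetus and at 2.20, 2.14, 2.18 and 2.71 in KODam_HetFetus. Replicate 4 of KODam_HetFetus lay above replicate 2 of the controls, so the groups overlapped by this pair. The difference was -0.84 ± 0.249 (limma adjusted p = 0.0133), and it passed the test without any single library. It did not without both presumed littermates, KODam_HetFetus replicates 1 and 2 (-0.70, limma adjusted p = 0.114), nor without the 4 libraries with markers of other tissues (-0.70, adjusted p = 0.114). The latter took replicates 1 and 4 from HetDam_HetFetus, so each of these fits had a smaller group.

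Igfbp1 stood at 10.47, 10.22, 10.92 and 10.73 in HetDam_HetFetus and at 11.25, 11.50, 11.01 and 11.44 in KODam_HetFetus. All 4 fetuses of knockout dams were above all 4 controls, by a difference of 0.71 ± 0.254 (limma adjusted p = 0.0329). Leaving out HetDam_HetFetus replicate 1 gave 0.67 (adjusted p = 0.0701) and leaving out its replicate 2 gave 0.59 (adjusted p = 0.101). Leaving out KODam_HetFetus replicates 1, 2 or 4 gave 0.73, 0.65 and 0.67 with adjusted p-values of 0.0571, 0.0797 and 0.0719. Without replicate 1 of KODam_HetFetus the difference was thus not smaller than with all libraries. The call was lost when any of these 5 libraries was left out singly, each time with a smaller group. It was also lost with litter as a random block (0.70, adjusted p = 0.0577) and with trimmed-mean scaling. Igf1r stood at 0.56, 0.43, 1.16 and 0.87 in the controls and at 1.62, 1.74, 1.18 and 1.40 in KODam_HetFetus, where the lowest value lay just above the highest control. Its difference of 0.73 ± 0.237 (limma adjusted p = 0.0211) likewise lost its call when any of 4 libraries was left out singly. It missed the test without replicate 1 or 2 of HetDam_HetFetus (0.66 and 0.62, adjusted p-values 0.0553 and 0.0667) and without replicate 1 or 2 of KODam_HetFetus (0.68 and 0.64, adjusted p-values 0.0565 and 0.0610). With quantile normalization of the tested genes alone, it also missed the test (0.57, adjusted p = 0.0523).

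Igfbp4 stood at 8.03, 7.96, 8.15 and 8.06 in HetDam_HetFetus and at 7.50, 7.44, 7.79 and 7.73 in KODam_HetFetus. The groups did not overlap, although the difference of -0.43 ± 0.149 (limma adjusted p = 0.0280) was the smallest of the 5 called. It missed the test without replicate 3 or 4 of HetDam_HetFetus (-0.40 and -0.43, adjusted p-values 0.0670 and 0.0522) and without replicate 1 or 2 of KODam_HetFetus (-0.39 and -0.37, adjusted p-values 0.0757 and 0.0801). With litter as a random block it missed the test narrowly (-0.40, adjusted p = 0.05001). Without the pair of presumed littermates Igfbp1 stood at 0.64 (adjusted p = 0.157), Igf1r at 0.53 (adjusted p = 0.193) and Igfbp4 at -0.29 (adjusted p = 0.261), so that Ghr alone passed the limma test. The same held without the 4 libraries with markers of other tissues, where these 3 genes stood at 0.73 (adjusted p = 0.0592), 0.69 (adjusted p = 0.112) and -0.44 (adjusted p = 0.117). The control group was smaller there, while the differences of Igfbp1 and Igfbp4 were not and that of Igf1r was.

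The remaining 5 genes did not pass the test in this comparison. Igf1, the ligand gene itself, differed by 0.20 ± 0.233 (limma adjusted p = 0.518, 95% interval -0.29 to 0.69), and Igf2r, whose product clears IGF2 from the cell surface, by -0.20 ± 0.277 (adjusted p = 0.600). Igfbp3, the main carrier of IGFs in adult blood, differed by 0.45 ± 0.278 (adjusted p = 0.206), and Irs2 by 0.75 ± 0.591 (adjusted p = 0.326). Irs2 spread widely among the controls, at 1.99, 0.58, 3.51 and 3.80. Igfbp2, a binding protein gene that the fetal liver expresses strongly, split KODam_HetFetus: replicates 1 and 2, the presumed littermates, stood at 6.40 and 5.12, and replicates 3 and 4 at 7.61 and 7.70, against 7.22, 7.16, 7.70 and 6.98 in the controls. Its difference of -0.56 ± 0.492 (adjusted p = 0.384) became 0.39 (adjusted p = 0.558) without that pair.

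Markers of some liver cell types moved in the same comparison, in which 26.4% of all genes tested rose and 12.6% fell. Of 12 hepatocyte markers, 1 rose and 3 fell by limma, with a median of -0.30, while their summed log2 level, dominated by the most abundant genes, ran from 15.72 to 16.67 in HetDam_HetFetus and from 15.65 to 16.27 in KODam_HetFetus. Of 8 neutrophil and myeloid markers 5 fell and none rose, and their summed level ran from 11.60 to 12.14 in HetDam_HetFetus and from 10.72 to 11.38 in KODam_HetFetus. Of 7 erythroid markers 2 rose, and of 7 tested macrophage markers 1 rose and 3 fell. Of 8 endothelial markers 1 rose and 1 fell (median 0.07), and of 8 stellate and mesenchymal markers 0 rose and 0 fell (median 0.0035). Of 8 adrenal and gonad markers 3 were tested and all 3 fell, with a summed level of 6.35 to 6.95 in HetDam_HetFetus and 3.50 to 5.66 in KODam_HetFetus, while the steroid synthesis markers Cyp11a1 and Star stayed under a linear value of 1 in every library. Over the 20 libraries the mean of the hepatocyte markers correlated with Igfbp4 (Pearson r = 0.75), Igfbp2 (r = 0.72), Insr (r = 0.67), Ghr (r = 0.55), Igfbp3 (r = 0.26) and Igf2r (r = 0.19), and with Igf1 (r = -0.34), Igfbp1 (r = -0.28), Igf1r (r = -0.21) and Irs2 (r = -0.17) in the other direction, as a description over libraries that share groups and litters. In bulk tissue, fewer cells of a type and less RNA per cell cannot be told apart, and the part of cell composition in the differences of the members was not tested.

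The comparison of KODam_KOFetus with HetDam_HetFetus combines loss of Ppara in dam and fetus, and uses the same controls as the one above. Ghr and Insr were lower here too, by 1.91-fold and 1.97-fold, and Igfbp2 was 3.51-fold lower. None of the 10 genes rose and 3 fell, where 17.4% of the 11801 genes tested rose and 7.31% fell, and the median was -0.16 for the members and 0.14 for all genes. Ghr stood at 1.99, 2.41, 2.36 and 2.22 in KODam_KOFetus, below all controls, a difference of -0.93 ± 0.178 (limma adjusted p = 0.00177) that passed the test in every alternative. No alternative left out together the presumed littermates of this group, KODam_KOFetus replicates 1 and 2. Insr stood at 2.17, 2.38, 1.86 and 2.24, below every control, a difference of -0.98 ± 0.249 (adjusted p = 0.00925).

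Igfbp2 stood at 4.70, 5.75, 5.41 and 5.97 in KODam_KOFetus, all below the lowest control at 6.98, for a difference of -1.81 ± 0.492 (limma adjusted p = 0.0132). Neither Igfbp2 nor Insr lost its call without any single library. Without the 4 libraries with markers of other tissues they stood at -2.07 (adjusted p = 0.0562) and -0.92 (adjusted p = 0.0759), and Ghr was the one member that passed. Leaving these out took replicates 1 and 4 from HetDam_HetFetus and replicate 2 from KODam_KOFetus. Both groups were thus smaller, while the difference of Igfbp2 was larger and that of Insr slightly smaller. Igf2r differed by -0.57 ± 0.277 (adjusted p = 0.134) and passed without HetDam_HetFetus replicate 2 (-0.86, adjusted p = 0.0238) and after removal of the transcript length trend (-0.59, adjusted p = 0.0273). Igfbp1, at 10.72, 10.33, 11.15 and 11.61, overlapped the controls and differed by 0.37 ± 0.254 (adjusted p = 0.294). Igf1 differed by 0.45 ± 0.233 (adjusted p = 0.157), Igfbp3 by 0.21, Igf1r by 0.24, Igfbp4 by -0.15 and Irs2 by -0.17, none of which passed. Of the 12 hepatocyte markers 1 rose and 1 fell, of the 8 neutrophil and myeloid markers 4 fell, and of the 7 erythroid markers 3 rose. Of 7 tested macrophage markers 1 rose, of 8 endothelial markers 1 fell, and of 8 stellate and mesenchymal markers 1 rose and 1 fell. Over all genes tested 17.4% rose and 7.31% fell. All 3 tested adrenal and gonad markers fell (median -1.80, summed level 4.40 to 6.40 in KODam_KOFetus), as did 1 of 3 tested intestine and stomach markers (median -1.18, summed level 2.21 to 3.12 against 3.51 to 6.81 in HetDam_HetFetus). Their part in the differences of the members was not tested.

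Loss of Ppara in the fetus itself was assessed among fetuses of knockout dams, KODam_KOFetus against KODam_HetFetus. These groups share no number in their sample descriptions, so fetal genotype cannot be told apart from dam or litter here. No member passed the limma test, where 0.822% of 11805 genes did, and 1 member had an unadjusted p under 0.05. That gene was Igfbp2 (-1.25 ± 0.492, adjusted p = 0.383), which without the littermate pair of KODam_HetFetus stood at -2.20 (limma adjusted p = 0.0217). Ghr did not differ detectably, at -0.02 ± 0.178 with a 95% interval of -0.39 to 0.35, and Insr stood at -0.14 ± 0.249. Igfbp1 (-0.34), Igf1r (-0.48), Igf2r (-0.38) and Irs2 (-0.93 ± 0.591) all had intervals that included 0.

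**Figure D2:**
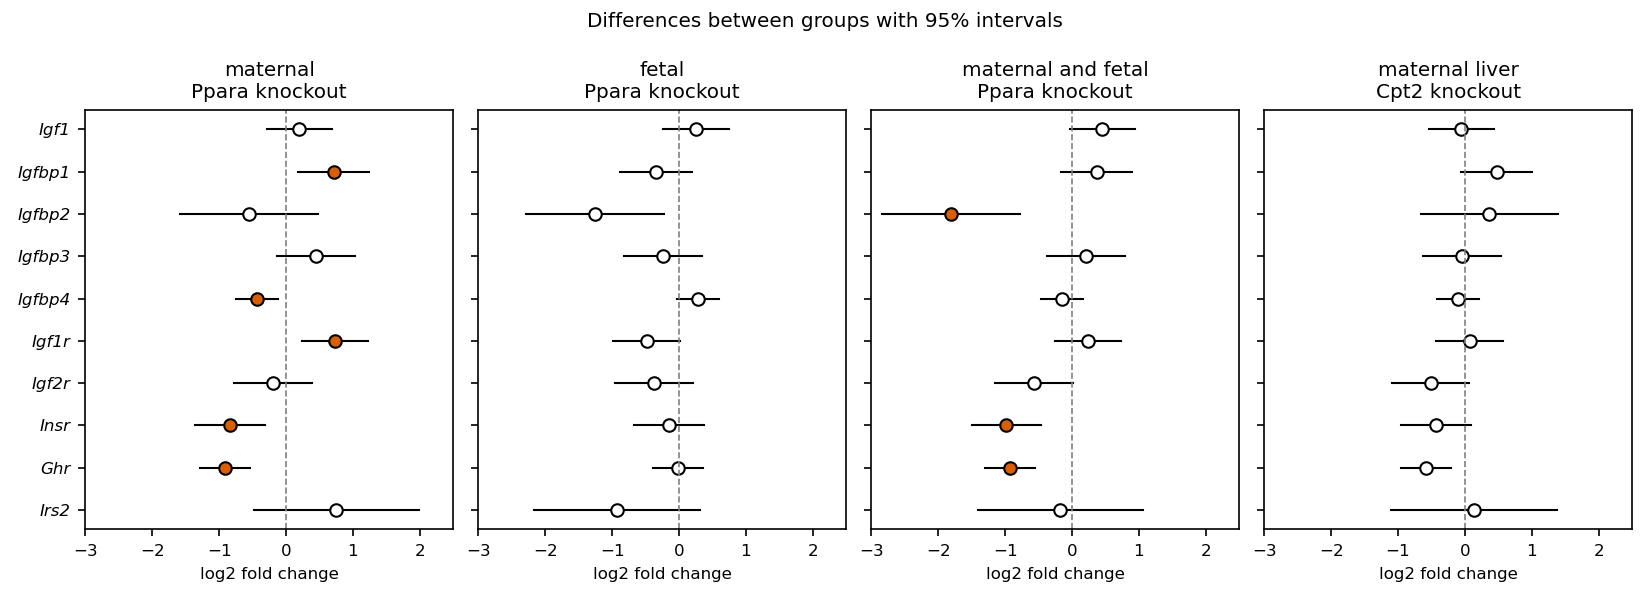
Log2 fold change of each gene (horizontal axis, points, orange where the limma adjusted p is under 0.05) with its 95% interval (lines) in 4 comparisons. Ghr and Insr are called lower in both comparisons of knockout dams with heterozygous dams, and no gene is called in the fetal Ppara or the maternal liver Cpt2 comparison.

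The Cpt2 arm asks what a block of fatty acid oxidation in the liver of the dam does to the fetus. No member passed the limma test, and neither did any other gene (0% of 11805), while 1 member and 1311 genes, or 11.1% of those tested, had an unadjusted p under 0.05. The member was Ghr, which stood at 3.35, 2.99, 3.46 and 3.32 in FloxDam_FloxFetus and at 2.74, 3.06, 2.66 and 2.33 in Cpt2LKODam_FloxFetus. One fetus of a Cpt2-deficient dam, replicate 2, lay above the lowest control, and that is the library with pancreas markers. The difference was -0.58 ± 0.178 (unadjusted p = 0.00407, limma adjusted p = 0.351), and it kept its sign without each single library (-0.70 to -0.46). Insr (-0.43 ± 0.249), Igf2r (-0.51 ± 0.277) and Igfbp1 (0.48 ± 0.254) had adjusted p-values of 0.523, 0.492 and 0.489. Igfbp1 divided the Cpt2LKODam_FloxFetus livers, with replicates 1 and 4 at 10.58 and 10.20 and replicates 2 and 3 at 9.39 and 9.62, against 9.32 to 9.72 in the controls.

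The effects of the 2 maternal genotypes were compared directly as a difference of differences. No member passed (0% of 11798 genes did, with limma), and none had an unadjusted p under 0.05, against 2343 of all genes. For Ghr the maternal Ppara effect was lower by 0.33 than the maternal Cpt2 effect, written -0.33 ± 0.252 with a 95% interval of -0.86 to 0.20. The interval for Insr was -1.14 to 0.33, for Igfbp1 -0.52 to 0.99, and for Igf1r -0.04 to 1.36. The intervals of all 10 members included 0.

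The control groups of the arms did not overlap in Igfbp1, although the difference missed the test over all genes. It stood at 10.22 to 10.92 in HetDam_HetFetus and at 9.32 to 9.72 in FloxDam_FloxFetus, a 2.17-fold difference of 1.12 ± 0.254 (limma adjusted p = 0.0819). Of the 10 members 0 passed, where 0.136% of 11800 genes did, and 1 member and 1946 genes had an unadjusted p under 0.05. With only these groups in the fit Igfbp1 passed (adjusted p = 0.0427). Irs2 differed by 1.01 ± 0.591 and Igfbp2 by 0.87 ± 0.492, neither past the test. Genotype and every other difference between the arms cannot be told apart here. Between males and females 0 members passed by limma, where 0.0508% of 11807 genes did, and none had an unadjusted p under 0.05, against 613 of all genes; the differences ran from -0.30 for Irs2 to 0.07 for Igfbp4.

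The wider growth hormone receptor pathway was followed in a list of 14 genes, of which 9 were tested. In the maternal Ppara comparison 1 rose and 1 fell, and in the combined one 1 rose and 2 fell, where 26.4% of all genes tested rose and 12.6% fell in the former and 17.4% and 7.31% in the latter. The list had medians of 0.05 and 0.08, against 0.14 for all genes in each comparison. Jak2, the kinase bound to the receptor, stood at 2.11, 1.70, 2.02 and 1.94 in HetDam_HetFetus, at 3.61, 3.48, 3.18 and 3.26 in KODam_HetFetus and at 2.79, 2.42, 3.25 and 3.22 in KODam_KOFetus. It was higher in every fetus of a knockout dam than in any of these controls, 2.71-fold in heterozygous fetuses (1.44 ± 0.221, limma adjusted p = 2.14e-04) and 1.97-fold in knockout fetuses (0.97 ± 0.221, adjusted p = 0.00471). Cish encodes a STAT5-induced inhibitor of cytokine receptor signalling. Bulk values do not tell which receptor or cell type the levels of Jak2 and Cish relate to. Summed erythroid markers stood at 16.57 to 16.74 in HetDam_HetFetus and at 16.74 to 16.84 in KODam_HetFetus, and their part in these levels was not tested.

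Cish stood at 2.40, 3.29, 2.37 and 3.35 in HetDam_HetFetus, at 0.98, 1.46, 1.22 and 1.80 in KODam_HetFetus and at 1.33, 1.83, 1.02 and 1.92 in KODam_KOFetus. Again no fetus of a knockout dam reached the lowest of these controls, and Cish was 2.81-fold lower (-1.49 ± 0.321, limma adjusted p = 0.00176) and 2.51-fold lower (-1.33 ± 0.321, adjusted p = 0.00689). Igfals, from the list of other IGF genes, encodes the acid-labile subunit that joins IGF and IGFBP3 in a stable blood complex. It stood at 1.68, 1.88, 1.53 and 2.17 in HetDam_HetFetus, at 0.35, 0.66, 1.33 and 0.97 in KODam_HetFetus and at 0.62, 1.08, 0.04 and 0.68 in KODam_KOFetus. All 8 fetuses of knockout dams were below the controls, by -0.98 ± 0.233 (limma adjusted p = 0.00335) and -1.21 ± 0.233 (adjusted p = 0.00186). In the Cpt2 arm none of these 3 genes was called, and Jak2 stood at 2.06, 2.04, 2.75 and 3.15 in Cpt2LKODam_FloxFetus against 1.93 to 2.29 in FloxDam_FloxFetus, with overlap. Jak2 and Cish passed in every alternative for both Ppara comparisons, none of which left out the presumed littermates of KODam_KOFetus together. Igfals was lost in the maternal comparison without the littermate pair of KODam_HetFetus (-0.66, limma adjusted p = 0.0760). Onecut1, a liver transcription factor gene that responds to growth hormone, fell by 3.06 in the combined comparison (limma adjusted p = 0.0146). Its call was lost without replicate 3 or replicate 4 of HetDam_HetFetus (-2.47 and -2.51, adjusted p-values 0.0538 and 0.0532). It was also lost without the 4 libraries with markers of other tissues (-3.11, adjusted p = 0.0652), where the control group was smaller and the difference was not.

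**Figure D3:**
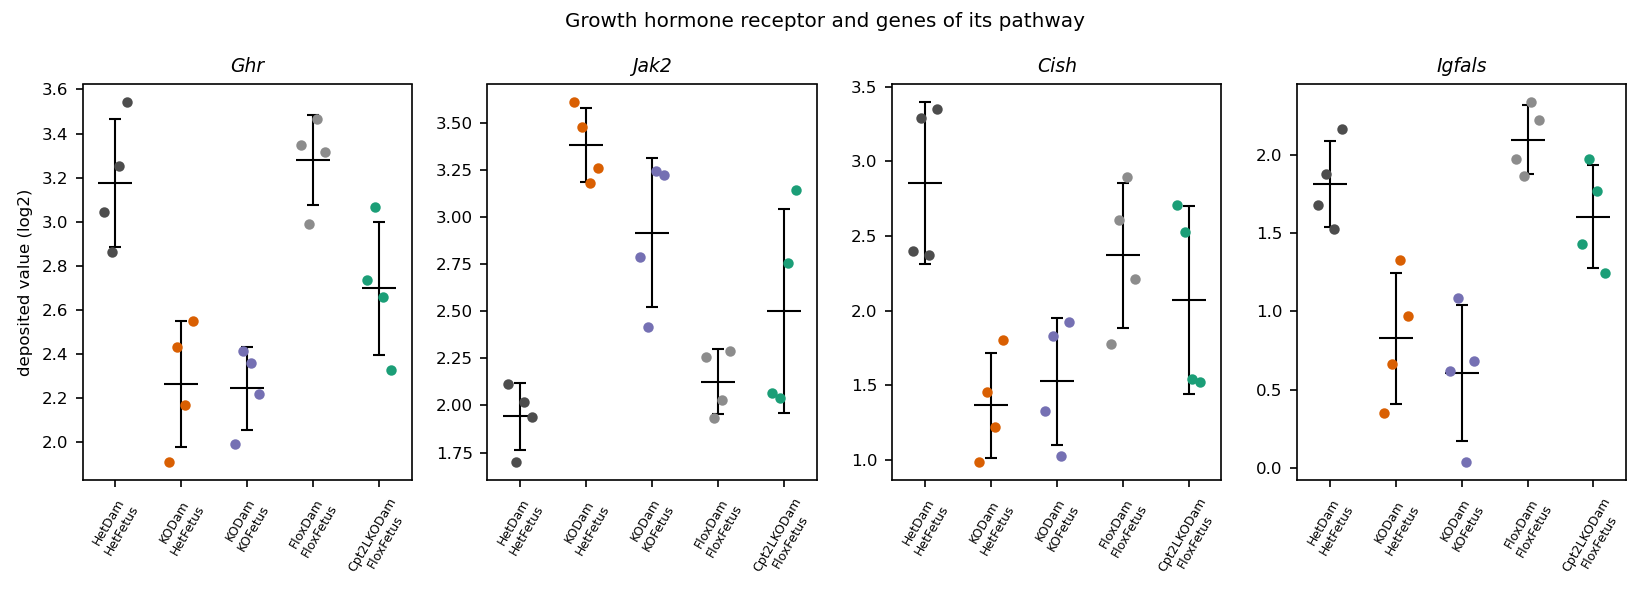
Deposited log2 value (vertical axes, not starting at 0) of Ghr, Jak2, Cish and Igfals in the 4 libraries of each group; points are libraries in replicate order, the bar is the mean and the whiskers are 1 SD. In the 8 fetuses of Ppara knockout dams all values of Ghr, Cish and Igfals lie below those of HetDam_HetFetus, and all values of Jak2 lie above them.

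Of the list of 16 other IGF genes 8 were tested, with 2 higher and 1 lower in the maternal Ppara comparison and 0 higher and 1 lower in the combined one. These maternal counts are near the shares of all genes, 26.4% higher and 12.6% lower. The shares in the combined comparison were 17.4% higher and 7.31% lower. The genes that rose encode RNA-binding proteins that act on IGF2 and other mRNAs, Igf2bp1 (0.66 ± 0.203, limma adjusted p = 0.0153) and Igf2bp2 (0.71 ± 0.197, adjusted p = 0.00900). Igf2bp1 lost its call without the littermate pair (0.68, adjusted p = 0.0650) and without the 4 libraries with markers of other tissues (0.67, adjusted p = 0.0663). Igf2, the main fetal ligand gene, was added after its values were seen. It stood at 9.29 ± 0.315 in HetDam_HetFetus, 9.18 ± 0.199 in KODam_HetFetus and 9.10 ± 0.234 in KODam_KOFetus, with differences from the controls of -0.12 ± 0.229 (limma adjusted p = 0.710) and -0.19 ± 0.229 (adjusted p = 0.561).

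Downstream of the receptors, 31 of 32 listed genes of insulin and IGF signalling were tested. In the maternal Ppara comparison 9 rose and 4 fell, with a median of 0.15, close to the 0.14 of all genes, and the counts too are near the shares of all genes, 26.4% and 12.6%. Under trimmed-mean scaling the counts were 5 and 7, where 2218 of 11800 genes rose and 2228 fell. Grb14, an adaptor that inhibits the insulin receptor, was 2.17-fold lower (-1.12 ± 0.222, limma adjusted p = 0.00106), and Mapk3, which encodes the kinase ERK1, fell by 0.48 (adjusted p = 0.00176). Sos1, a nucleotide exchange factor downstream of growth factor receptors, rose by 0.90 ± 0.204 (adjusted p = 0.00253) and Gsk3b, a kinase inhibited by AKT, by 0.85 ± 0.167 (adjusted p = 9.75e-04). These 4 genes passed in every alternative that tested them. Over the list 4 rose and 3 fell without the 4 libraries with markers of other tissues, where 2368 of 11629 genes rose and 820 fell.

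In the combined comparison 3 genes of this list rose and 2 fell, where 17.4% of all genes tested rose and 7.31% fell. Grb14 was 2.12-fold lower (-1.08 ± 0.222, limma adjusted p = 0.00261) and passed in every alternative, none of which left out the presumed littermates of KODam_KOFetus together. Inppl1, an inositol phosphatase gene, stood at -0.71 ± 0.192 (adjusted p = 0.0132) and lost its call without HetDam_HetFetus replicate 4 (-0.55, adjusted p = 0.0509), without the 4 libraries with markers of other tissues (-0.41, adjusted p = 0.215) and with only these groups in the fit (-0.71, adjusted p = 0.0555).

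FOXO genes and known FOXO targets were listed as 18 genes, of which 17 were tested. In the maternal Ppara comparison 6 rose and none fell, with a median of 0.44 against 0.14 for all genes, and in the combined one 3 rose and none fell, with medians of 0.14 for both. Over all genes 26.4% rose and 12.6% fell in the former comparison, and 17.4% rose and 7.31% fell in the latter. With trimmed-mean scaling 5 rose in the maternal comparison and in the combined one 1, Pik3ip1, where 2218 of 11800 and 1154 of 11801 genes rose. Without the littermate pair 3 rose in the maternal comparison, where 2318 of 11740 genes did. Without the 4 libraries with markers of other tissues 4 rose there, where 2368 of 11629 genes did. In the combined comparison 2 then rose, where 1239 of 11629 genes did. Pik3ip1, which encodes an inhibitor of phosphatidylinositol 3-kinase, stood at 0.56, 0.42, 0.17 and -0.18 in HetDam_HetFetus and at 1.96, 1.57, 1.92 and 2.03 in KODam_HetFetus. It was 3.09-fold higher (1.63 ± 0.272, limma adjusted p = 3.52e-04), and 2.24-fold higher in KODam_KOFetus (1.16 ± 0.272, adjusted p = 0.00563), and passed in every alternative that tested it. None of these left out the presumed littermates of KODam_KOFetus together. Txnip, a glucose-responsive regulator of glucose uptake, rose by 1.90 ± 0.515 in the maternal comparison (adjusted p = 0.00769), where all 4 libraries at 8.46 to 9.66 lay above the controls at 6.45 to 7.48. In KODam_KOFetus it ranged from 5.37 to 8.91.

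The growth arrest genes Ccng2 and Gadd45a rose in the maternal comparison by 0.99 ± 0.224 (limma adjusted p = 0.00242) and 0.63 ± 0.162 (adjusted p = 0.00555). Both calls were lost without the littermate pair, at 0.66 (adjusted p = 0.0648) and 0.53 (adjusted p = 0.0657). None of the 4 pathway lists held a called gene when tested for the fetal Ppara genotype, for the Cpt2 genotype of the dam, for unequal maternal effects, between control groups or by sex.

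Several members followed a trend of the libraries with transcript length. For each library the deviation of 11170 genes from their mean was regressed on the log2 length of the longest transcript, and the slope was highest on average in KODam_HetFetus (0.0925 ± 0.0536 log2 units per doubling) and lowest in Cpt2LKODam_FloxFetus (-0.110 ± 0.0760), with 0.0444 ± 0.161 in HetDam_HetFetus. Over 20 libraries the slope correlated with Irs2 at a Pearson r of 0.89, with Igf2r at 0.83, with Igf1r at 0.73, with Igfbp1 at 0.59 and with Insr at 0.49, and with Ghr at -0.12. It correlated at -0.46 with Igf1, whose longest transcript has 7052 bases against 6323 for Irs2, and at 0.07 to 0.15 with Igfbp2, Igfbp3 and Igfbp4. These correlations describe libraries that share groups and litters. Igf1r has the longest transcript of the members, at 11409 bases, and Igfbp1 one of the shortest, at 1525. With the trend removed the maternal Ppara call of Igfbp1 was lost (0.65, limma adjusted p = 0.0884), and those of Ghr, Insr, Igf1r and Igfbp4 were not. The removal took out the whole fitted line of each library, its level as well as its slope. The median of all genes in the maternal Ppara comparison went from 0.14 to 0.04 with it, and the part of length alone was not tested.

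**Figure D4:**
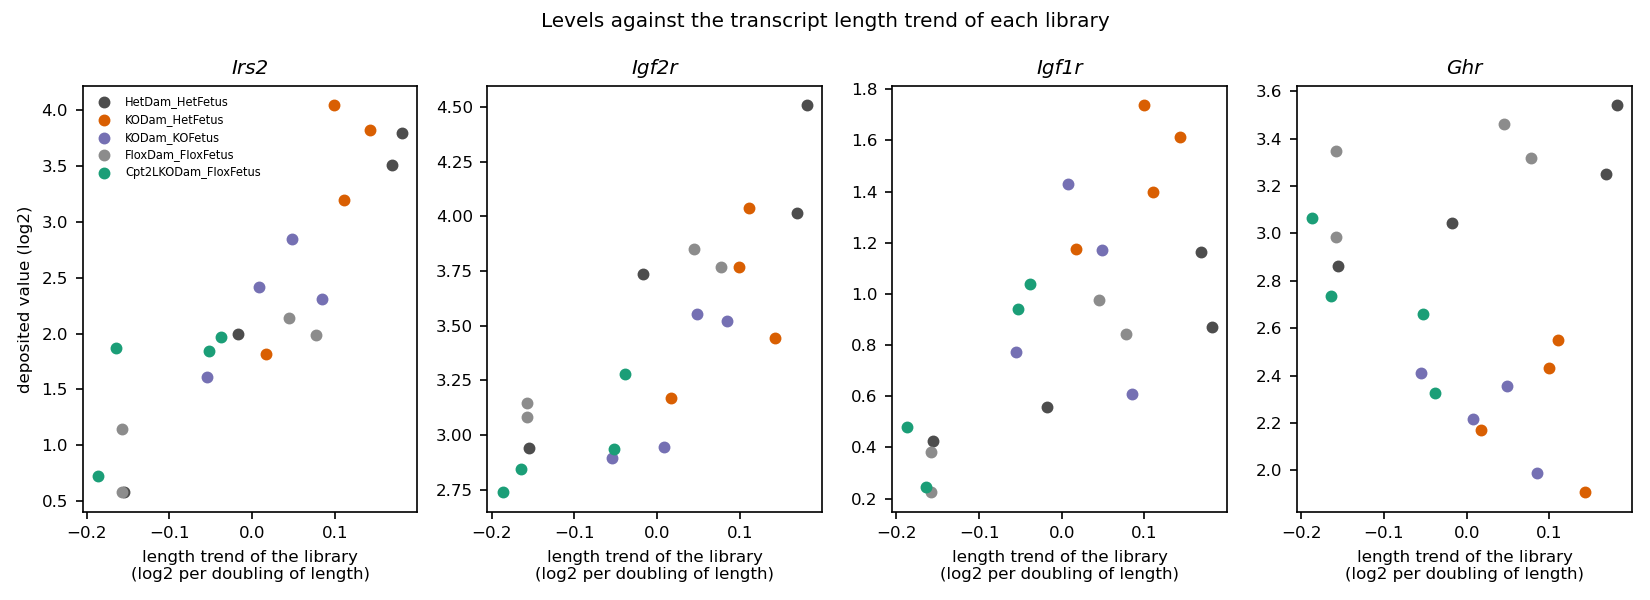
Deposited log2 value (vertical axes, not starting at 0) of Irs2, Igf2r, Igf1r and Ghr against the slope of each library's values on log2 transcript length (horizontal axes); each point is 1 of 20 libraries, coloured by group. Irs2 and Igf2r rise along the slope over all groups (r = 0.89 and 0.83), while Ghr does not (r = -0.12).

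The members also varied together within groups. After removal of group means, Igf2r and Irs2 correlated at a Pearson r of 0.82 over 20 libraries, Igfbp4 and Insr at 0.71 and Igf1r and Irs2 at 0.70. Igfbp1 and Irs2, the members with a forkhead motif in the windows printed above, correlated at 0.72 in their levels and at 0.58 within groups. Igf1r, whose window held no such motif, correlated in its levels at 0.78 with Irs2 and at 0.70 with Igfbp1. Within groups Igf1r and Igfbp1 correlated at 0.42. The neighbours Igfbp1 and Igfbp3 correlated at 0.25 and 0.16. Of 11087 other genes, those most like Ghr over the 20 libraries were AI182371 (r = 0.96), Cideb (r = 0.94) and St6gal1 (r = 0.93). Igfbp1 was most like Setd7 (r = 0.89), Igf2bp2 (r = 0.87) and Tsc22d2 (r = 0.85), and Igfbp2 most like the cytochrome P450 genes Cyp2d10 (r = 0.87) and Cyp2d9 (r = 0.85) and Zfp629 (r = 0.85). For Insr the closest were Erbb3 (r = 0.94), Plxnb2 (r = 0.93) and Dsg2 (r = 0.92), and for Irs2 they were Khnyn (r = 0.96), Jmjd1c (r = 0.95) and Appbp2 (r = 0.94). Igf1r was most like Cds2 (r = 0.96) and Igf2r most like Sptbn1 (r = 0.94), whereas the closest genes to Igf1, Igfbp3 and Igfbp4 reached 0.84, 0.85 and 0.85.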

How the data were processed

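Per the labels' protocols, RNA was extracted from snap-frozen fetal livers with Trizol and a column, and stranded poly(A) mRNA libraries were sequenced as single reads. The submitters' processing notes name Partek 7.0, bcl2fastq 2.17.1.14 and the build GRCm38.p6. The authors deposited log2 values per gene with equal quantiles in every library. The sources used here do not give the quantity before the logarithm, the aligner or the counting rule; read depth is unknown, so no count test was run. Each library had values for 23334 to 26255 genes, and any pair of libraries had a Pearson r of 0.951 to 0.987 over the genes present in all.

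From these values, genes with a linear value of at least 1 in at least 4 libraries (11807 of 45802) entered 1 fit of all 20 libraries with a mean per group, in limma 3.58.1 (R 4.3.3, with a mean-variance trend; residual degrees of freedom 15, prior 4.09). For each of 7 comparisons the two-sided p-values of all genes were adjusted together (Benjamini-Hochberg), and genes under 0.05 were called. The sex comparison was made within groups. The step was tested on simulated data. The members and lists were chosen with earlier results of these data known. All 10 members were described; from each list up to 4 called genes with the smallest p per comparison could be named (1 of these is not reported here), and per member the 3 genes with the highest Pearson correlation. Of the growth hormone list 13 of 14 names were in the table. Alternatives were pseudocounts of 0.1 and 4, no filter, a linear minimum of 4, trimmed-mean scaling, quantile normalization of the tested genes, only the groups compared, sex, replicate number or litter in the fit, no trend, and single libraries or the presumed littermates KODam_HetFetus replicates 1 and 2 left out. The presumed pairs KODam_KOFetus replicates 1 and 2 and FloxDam_FloxFetus replicates 3 and 4 were not left out together. The 2 alternatives added after seeing the data were the removal of 4 libraries with markers of other tissues and of the transcript length trend (95.9% of tested genes had a length). Replicate numbers were shared by all groups and no label ties them to litters. Same-numbered libraries of the control groups deviated together (correlations 0.127 to 0.323), and those of the other comparisons did not in every pair. Motifs were searched in windows from RefSeq.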

Additional observations from a re-analysis of the deposited data

Results flagged for a closer look

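Of 50 sets of 4 libraries (10 genes in 5 groups), 4 held a library far from the other 3 by Dixon's criterion at the 95% level; chance gives about 1 in 20. Igf1 was low in KODam_HetFetus replicate 1 (-0.0567, against 0.339 to 0.390 in the others). Igfbp2 was low in FloxDam_FloxFetus replicate 1 (4.84, against 6.82 to 7.04). Insr was high in KODam_HetFetus replicate 4 (2.71, against 2.14 to 2.20), the library by which that group overlapped its controls. Irs2 was low in Cpt2LKODam_FloxFetus replicate 2 (0.72, against 1.84 to 1.97), the library in which pancreas markers stood apart; its part in the value was not tested.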

How the results depend on the processing

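The calls of Ghr in the maternal and the combined Ppara comparison passed in every alternative. The littermates left out are not part of the combined comparison, and its own presumed pair, KODam_KOFetus replicates 1 and 2, was not left out together. With litter as a random block, the fitted common correlation of presumed littermates, taken gene by gene, was 0.566. Deviations from group means, correlated over genes, gave 0.212, -0.0925 and 0.323 for the 3 presumed pairs. The first and second lay below the highest other pair of their group. These are unlike measures, since removing group means lowers the correlation of pairs, and 1 does not check the other. In the maternal comparison 5 members were called as reported, 3 with litter as a random block, 1 without the presumed littermates, 1 without the 4 libraries with markers of other tissues, and 2 to 5 without single libraries. Igfbp1 was also lost with trimmed-mean scaling (0.59, limma adjusted p = 0.0945) and litter as a block (adjusted p = 0.0577), Igfbp4 with litter as a block (-0.40) and Igf1r with quantile normalization of the tested genes (0.57, adjusted p = 0.0523). The fetal comparison went from 0 members to 1 without the littermates, the combined one from 3 to 1 without the 4 libraries and to between 3 and 4 without single ones, and the control groups from 0 to 1 with only these groups fitted. With the replicate block the number of members called was 5 in the maternal comparison, as without it, and it changed no other call of a member; it left 15 against 16 genes called between the control groups. The stricter filter leaves out Igf1r and Igf1.

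Values that changed sign were all uncalled. With trimmed-mean scaling these were Ghr between the control groups (0.0431) and by sex Ghr (0.0364), Igf1 (0.00230) and Igfbp2 (0.0157). With quantile normalization of the tested genes they were Ghr in the fetal comparison (0.000179) and by sex (0.0180), and Igf1 by sex (0.0204) and in the maternal Ppara one (-0.00547). With the length trend removed they were Ghr in the fetal comparison (0.0370) and by sex (0.0499), Igf1 by sex (0.0373) and in the Cpt2 comparison (0.0461), Igfbp3 between controls (0.0112) and Insr by sex (0.0338). With the replicate block the sex differences of Igf2r (0.0787), Igfbp2 (0.0684), Insr (0.0498) and Irs2 (0.0354) changed sign, and with the litter block Ghr by sex (0.0663) and Igfbp3 in the Cpt2 comparison (0.0639). Without the littermates these were Igfbp2 in the maternal comparison (0.39), the difference of effects (0.0223) and by sex (0.105), and Irs2 in the difference (-0.0993). Without the 4 libraries they were Igf2r in the maternal comparison (0.13), Igfbp3 between controls (0.0426) and in the combined comparison (-0.000278), and Irs2 in the combined one (0.48). The cause was not tested.

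Without single libraries, ranges crossed 0 for Igf2r in the maternal Ppara comparison (-0.48 to 0.0399), Igfbp3 (-0.40 to 0.0538) and Ghr (-0.14 to 0.0745) in the fetal one, and Irs2 in the combined one (-0.80 to 0.27). In the Cpt2 comparison they did for Igf1 (-0.24 to 0.17), Igfbp2 (-0.15 to 0.58), Igfbp3 (-0.26 to 0.13), Igf1r (-0.0579 to 0.21) and Irs2 (-0.16 to 0.43). They did for Irs2 in the difference of effects (-0.0162 to 1.08) and, between controls, for Igfbp3 (-0.38 to 0.00690) and Igfbp4 (-0.0855 to 0.18). By sex they did for Igf1 (-0.11 to 0.0459), Igfbp2 (-0.26 to 0.19), Igf2r (-0.21 to 0.0135), Insr (-0.14 to 0.0239) and Ghr (-0.0667 to 0.0385). Over all genes, the share of calls that rose moved from 67.8% to 49.9% (maternal Ppara) and from 70.4% to 45.5% (combined) with trimmed-mean scaling, and the median of the former from 0.14 to 0.02. Calls numbered 4600 in the maternal comparison as reported and 2842 without the littermates, 97 in the fetal one and 63 with only these groups or 147 without KODam_KOFetus replicate 3, and 2916 in the combined one and 1757 without the 4 libraries or 1827 without KODam_KOFetus replicate 4. From 0 they went to at most 1 for Cpt2 and, for the difference of effects, to 421 without Cpt2LKODam_FloxFetus replicate 4 and at most 2 otherwise; between controls they went from 16 to between 5 (stricter filter) and 35 (without HetDam_HetFetus replicate 1). Read depth is unknown, so its limits cannot be stated.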

Other observations

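Ins2, an insulin gene listed with the axis, had a value in 12 of the 20 livers. It stood at 4.26 in Cpt2LKODam_FloxFetus replicate 2, the library in which exocrine pancreas markers stood apart, and between -3.95 and -1.86 in the other 11. It did not pass the filter on low values and was not tested, and it was singled out after its values were seen.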
